A study of Mus musculus with 13 samples.

Results

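The 6 actin genes of the mouse, Actc1, Acta1, Acta2, Actb, Actg1 and Actg2, were followed by their symbols in the deposited count matrices of UMIs per gene and cell barcode. The genes were chosen by name and not by their values, although earlier results of these data were known. The series holds 10x Genomics single-cell RNA-seq libraries of wild-type C57Bl/6J mice, collected to study the development of the cardiac conduction system. All groups share this genotype and none was treated. The E8.5 and E10.5 libraries were made from embryos without head and limbs, and those of all later stages from dissected hearts, so that tissue and stage change together between E10.5 and E12.5 and cannot be told apart there. E stands for embryonic day and P for postnatal day. The labels name trypsin for the digestion, whereas the published methods name collagenase II. No label says that the libraries of a stage came from separate animals, so that p-values measure the spread between libraries, which may be technical.

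The matrices analysed were 1 at E8.5, 2 each at E10.5, E12.5, E14.5 and E16.5, and 1 at P3 in which 2 wells were pooled. One matrix stood for both sample records of E16.5 replicate 1, and E8.5 replicate 1 was not analysed here. The wells were not taken as replicates, and E8.5 and P3 entered no test. Total counts of unique molecular identifiers (UMIs) ranged from 67141166 to 259041468 per matrix, and 89.6 to 99.7% of them lay in the 80741 barcodes with at least 2000 UMIs, to which the values below refer. The median UMI count per barcode ran from 10268 to 24516. Any pair of matrices, with the 2 P3 wells counted apart, shared 0.548 to 2.42% of the barcodes of the smaller one. Levels are UMIs of a gene per 1000000 UMIs (CPM), summed over the barcodes of a class in a library. Each UMI stands for 1 captured 3′ end, so that levels were not divided by transcript length.

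Actins are the subunits of the thin filaments of muscle and of the cytoskeleton of every cell. Actc1 (cardiac α-actin) and Acta1 (skeletal α-actin) build sarcomeres, and the embryonic heart is known to use both. Acta2 (vascular smooth muscle α-actin) is an early actin of the heart tube and later marks smooth muscle and myofibroblasts, Actg2 is the enteric smooth muscle γ-actin, and Actb and Actg1 are the cytoplasmic β- and γ-actins. The muscle actin genes are classical targets of serum response factor (SRF), which binds the CArG box, an element with CC and GG at its ends and an A- or T-only core.

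The genes lie on 6 chromosomes of GRCm38, Actc1 at chr2:114047282-114052875, Acta1 at chr8:123891758-123894775, Acta2 at chr19:34240336-34255585, Actb at chr5:142903115-142907976, Actg1 at chr11:120345687-120348495 and Actg2 at chr6:83512909-83536251. Their coding sequences shared 81.9 to 88.7% of bases, with the highest identity between Actb and Actg1. By contrast, of the 370 words of 31 bases in the last 400 bases of each transcript, where 3′ libraries take their reads, at most 2 were shared with another actin. Reads that start in coding sequence could still have been assigned to more than 1 actin or discarded, and the counting does not show how many were.

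The 250 bases before the transcription start are printed for the 4 members matched in the RefSeq promoter table of GRCm38.p6, since these genes followed different courses in the cardiomyocytes below. All 4 are on the minus strand and are written 5′ to 3′, with CArG boxes, and boxes with 1 core letter that is not A or T, in capitals. Matches were searched in the motif that reads the same on both strands. The windows are chr2:114052876-114053125 for Actc1, chr8:123894776-123895025 for Acta1, chr19:34255374-34255623 for Acta2 and chr11:120348496-120348745 for Actg1. The annotated extent of Acta2 reaches into its window.
Actc1: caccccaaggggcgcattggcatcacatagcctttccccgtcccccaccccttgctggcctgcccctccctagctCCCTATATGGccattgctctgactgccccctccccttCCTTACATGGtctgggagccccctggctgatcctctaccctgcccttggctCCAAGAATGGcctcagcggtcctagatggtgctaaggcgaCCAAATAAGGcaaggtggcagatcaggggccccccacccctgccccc
Acta1: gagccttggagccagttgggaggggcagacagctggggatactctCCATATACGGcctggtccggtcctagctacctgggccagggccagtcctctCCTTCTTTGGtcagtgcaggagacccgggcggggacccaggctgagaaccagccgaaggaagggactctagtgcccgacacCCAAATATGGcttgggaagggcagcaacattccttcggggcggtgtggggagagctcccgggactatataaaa
Acta2: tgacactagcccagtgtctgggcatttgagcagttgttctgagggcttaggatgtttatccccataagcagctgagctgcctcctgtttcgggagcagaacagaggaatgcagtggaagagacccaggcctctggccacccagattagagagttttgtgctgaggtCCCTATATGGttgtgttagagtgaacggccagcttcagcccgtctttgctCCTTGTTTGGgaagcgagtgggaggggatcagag
Actg1: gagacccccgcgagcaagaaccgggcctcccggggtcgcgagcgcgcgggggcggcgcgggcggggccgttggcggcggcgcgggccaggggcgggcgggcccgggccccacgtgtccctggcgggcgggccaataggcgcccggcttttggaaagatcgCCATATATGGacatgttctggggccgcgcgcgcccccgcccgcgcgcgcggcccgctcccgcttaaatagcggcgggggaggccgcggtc
An exact CArG box stood in the Actc1 window as CCAAATAAGG from base -47 to -38, in the Acta1 window as CCAAATATGG from -73 to -64 and in the Actg1 window as CCATATATGG from -90 to -81. The Acta2 window held none, and boxes with 1 other core letter as CCCTATATGG from -84 to -75 and CCTTGTTTGG from -34 to -25. CCCTATATGG was also found in the Actc1 window, from -175 to -166. Across the 32851 promoters of the table, 1.47% held an exact box in a window of this length and 8.59% an exact box or one with 1 other core letter. A match describes the letters only, and binding was not measured.

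Barcodes were sorted by single genes that are not actins. Cardiomyocytes were barcodes with at least 1500 CPM of Tnnt2 (cardiac troponin T), and among the remaining barcodes endothelial cells had at least 200 CPM of Cdh5 (VE-cadherin) and mesenchymal cells at least 500 CPM of Col1a1 (a type I collagen chain). This gave 27492 cardiomyocyte, 4015 endothelial, 4777 mesenchymal and 44437 other barcodes, while 20 barcodes that passed both of the latter gates were left out. Cardiomyocytes numbered 138 at E8.5, 122 and 109 at E10.5, 2601 to 3943 per heart library from E12.5 to E16.5, and 7176 at P3. In the 7 heart matrices the 6 cardiomyocyte markers summed to 5413 to 12565 CPM in the cardiomyocyte gate and to 85.1 to 210.3 CPM in the endothelial and mesenchymal gates, with no marker at 0. Of the cardiomyocytes, 364 also passed another gate. No doublet caller was run, and these barcodes were left out in an alternative.

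In cardiomyocytes Actc1 had the highest level of the actins at every stage, while Acta1, Actb and Actg1 fell at each step from E10.5 to E16.5 and Acta2 at the first and the last. The mean level at E10.5 was 11.2 times that at E16.5 for Acta1, 7.34 times for Actb, 4.37 times for Actg1 and 2.48 times for Acta2, and 0.746 times for Actc1. At doubled gate levels, with 21 and 29 cardiomyocyte barcodes in the E10.5 libraries, the ratio was 1.22 for Actc1, which turns its direction, and 4.23 for Acta2. Free RNA, read from barcodes of 10 to 100 UMIs, moved the same way for the cytoplasmic actins. Its Actb stood at 12251 and 11630 CPM at E10.5, 1099 and 1373 CPM at E12.5 and 679 and 630 CPM at E16.5, and its Actg1 at 1534 and 1583, 810 and 917, and 408 and 465 CPM. Its part in the lower Actb and Actg1 of cardiomyocytes was not tested. At P3, which was not tested against E16.5, Acta1 and Acta2 were lower than in both E16.5 libraries and Actb and Actg1 were higher, in each of the 2 wells. The mitochondrial ceiling of the study at P3, 20%, would keep 2712 of the 7176 cardiomyocyte barcodes. P3 levels under that ceiling are not given here. On visual inspection, the paper found significant batch differences at P3 only.

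**Figure D1:**
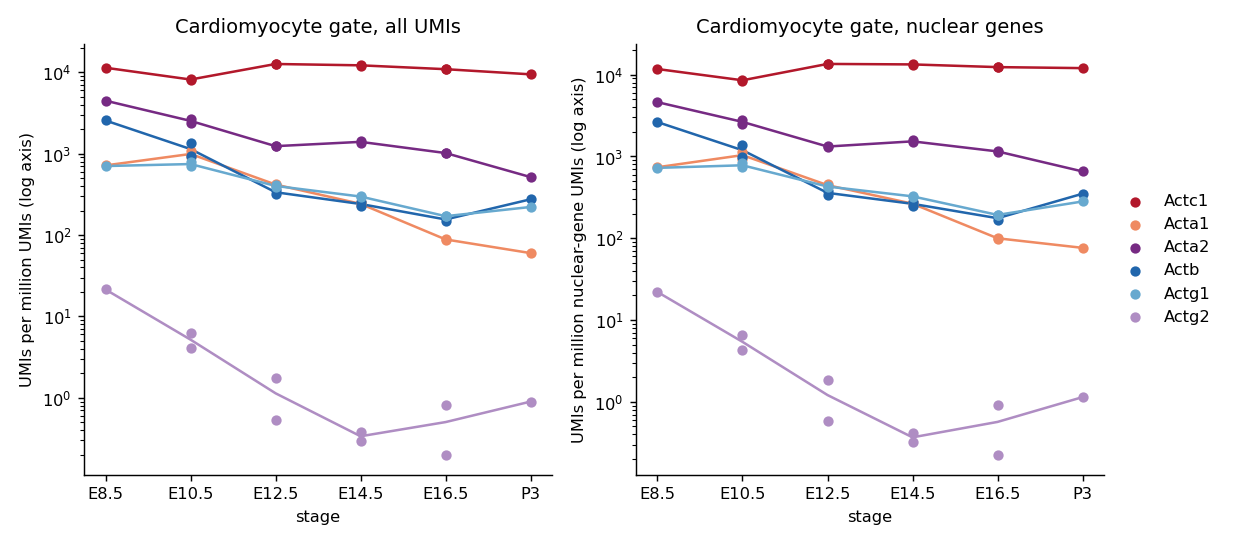
Levels of the 6 actin genes in cardiomyocytes by stage on log axes, in CPM on the left and per 1000000 UMIs of nuclear genes on the right, with 1 point per matrix and lines through the stage means. On the left, Acta1 descends from between 903 and 1085 CPM at E10.5 to 60.1 CPM at P3, whereas Actc1 stays between 8131 and 12848 CPM.

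Actc1 stood at 11418 CPM at E8.5, at 8226 and 8131 CPM in the E10.5 libraries, at 12848 and 12542 CPM at E12.5, at 12032 and 12412 CPM at E14.5, at 10994 and 10922 CPM at E16.5 and at 9470 CPM at P3. The E10.5 libraries were the lowest of the series and did not overlap with those of E12.5. Actc1 was 0.78 higher at E12.5 than at E10.5 on the log2 scale (SE 0.0770, adjusted p = 3.77e-07, edgeR quasi-likelihood test with Benjamini-Hochberg adjustment). This call depended on the gate. With the gate levels doubled, 21 and 29 cardiomyocytes remained at E10.5, Actc1 averaged 13603 CPM there, and the difference was 0.20 (adjusted p = 0.205). Between E12.5 and E14.5 it was -0.08 (SE 0.0762, adjusted p = 0.411), and between E14.5 and E16.5 it was 0.01 (SE 0.0762, adjusted p = 0.905), the latter turning to -0.16 (adjusted p = 0.0268) where libraries were scaled by their totals alone. Scaled per 1000000 UMIs of nuclear genes, Actc1 was 12384 on average at E16.5 and 12037 at P3.

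Acta1 was counted at 719 CPM at E8.5 (95% exact Poisson interval 689 to 749.9, counting error only) and at 903 and 1085 CPM at E10.5. It then measured 429 and 407 CPM at E12.5, 252 and 232 CPM at E14.5, 90.3 and 86.6 CPM at E16.5 and 60.1 CPM at P3. The libraries of the 4 replicated stages did not overlap, and each stage lay below the one before. Log2 differences were -1.10 at E12.5 against E10.5 (SE 0.0915, adjusted p = 4.57e-08), -0.82 at E14.5 against E12.5 (SE 0.0877, adjusted p = 1.14e-06) and -1.28 at E16.5 against E14.5 (SE 0.0893, adjusted p = 3.13e-09, edgeR). All 3 calls remained in every leave-one-out fit.

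The size of the early fall rested partly on a few barcodes of skeletal muscle character. At E10.5, 13 and 6 barcodes in the cardiomyocyte gate held a UMI of Myog, Myod1 or Myf5, which encode myogenic regulators, and none held a UMI of the cardiac factor Nkx2-5. In them Acta1 reached 3797 and 6682 CPM and Actc1 only 4586 and 4950 CPM. Without them the E10.5 libraries stood at 656 and 699 CPM of Acta1, and the E10.5 to E16.5 ratio was 7.76 in place of 11.2. The Actb ratio was then 5.28 in place of 7.34. Acta1 at E12.5 against E10.5 was then -0.54 in place of -1.10 (adjusted p = 6.49e-05, edgeR). No call of a member changed when these barcodes were left out of the 3 stage comparisons.

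Acta2 was highest at E8.5 with 4493 CPM, followed by 2386 and 2685 CPM at E10.5. Later libraries held 1239 and 1241 CPM at E12.5, 1359 and 1443 CPM at E14.5, 1009.8 and 1031 CPM at E16.5, and 516 CPM at P3. The E14.5 libraries lay slightly above those of E12.5, which makes this course not monotonic. Acta2 was lower by -0.88 at E12.5 against E10.5 (SE 0.0814, adjusted p = 1.68e-07). With doubled gate levels it averaged 4409 CPM at E10.5, and this difference was -1.61 (adjusted p = 2.75e-13). It differed by 0.15 at E14.5 against E12.5 (SE 0.0795, adjusted p = 0.162) and was lower by -0.29 at E16.5 against E14.5 (SE 0.0796, adjusted p = 0.00805, edgeR). The last call was lost without E14.5 replicate 2, at -0.23 with adjusted p = 0.150, and without E16.5 replicate 2, at -0.28 with adjusted p = 0.0501, and it was -0.46 without TMM factors (adjusted p = 2.28e-05). The E14.5 difference was called at 0.24 (adjusted p = 0.0262) where barcodes under 1% mitochondrial UMIs were left out and at 0.18 (adjusted p = 0.04997) without TMM factors.

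Actg2 was the rarest member, at 21.5 CPM at E8.5, 4.11 and 6.26 CPM at E10.5, and at or below 1.73 CPM in every later library. Free RNA held 0 and 0.689 CPM of it at E10.5. It held 3.89 and 4.55 CPM at E12.5, 1.60 and 3.90 CPM at E14.5 and 2.75 and 2.00 CPM at E16.5, above the cardiomyocytes of each library. Without barcodes of more than 1 gate the cardiomyocyte mean at E16.5 was 0.185 in place of 0.503 CPM. The part of free RNA and doublets was not tested. Its differences were -2.06 at E12.5 against E10.5 (SE 0.845, adjusted p = 0.0765, but 0.0365 with DESeq2) and -1.70 at E14.5 against E12.5 (SE 0.546, adjusted p = 0.0210, edgeR). The second was lost without E12.5 replicate 1 (-0.65, adjusted p = 0.447), without E14.5 replicate 1 (-1.94, adjusted p = 0.0776) and without E14.5 replicate 2 (-1.57, adjusted p = 0.0945), and with DESeq2 (-1.78, adjusted p = 0.0650). At E16.5 against E14.5 it was 0.82 (SE 0.601, adjusted p = 0.295), and this was called without E16.5 replicate 2 (1.42, adjusted p = 0.0384). The first difference was negative under all 20 alternatives run and called under 8 of them. Among the 8 was the replicate block (-2.02, adjusted p = 0.00961, edgeR), which joins same-numbered libraries of different stages although these are not paired. The first difference was -3.11 without E12.5 replicate 1, -1.38 without E12.5 replicate 2 and -0.49, not called, at doubled gate levels.

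Actb was counted at 2564 CPM at E8.5, 1339 and 945 CPM at E10.5, 316 and 357 CPM at E12.5, 228 and 255 CPM at E14.5 and 147 and 164 CPM at E16.5. P3 stood at 276 CPM, with 294 and 230.0 CPM in its 2 wells, above both E16.5 libraries. The E10.5 libraries differed most from each other but remained far above all later ones. Actb was lower by -1.62 at E12.5 (SE 0.118, adjusted p = 7.51e-09), by -0.51 at E14.5 (SE 0.112, adjusted p = 0.00178) and by -0.46 at E16.5 (SE 0.112, adjusted p = 0.00308, edgeR), each against the stage before. At doubled gate levels the E14.5 difference was -0.33 (adjusted p = 0.0040, edgeR). Without E14.5 replicate 2 the last difference was -0.36 with adjusted p = 0.0648.

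Actg1 began at 706 CPM at E8.5, close to the 788 and 706 CPM of the E10.5 libraries. It measured 411 and 393 CPM at E12.5, 296 and 300 CPM at E14.5, 170.0 and 172 CPM at E16.5, and 222 CPM at P3. Each replicated stage lay below the one before without overlap. Log2 differences were -0.75 (SE 0.0804, adjusted p = 1.17e-06), -0.46 (SE 0.0759, adjusted p = 0.000127) and -0.63 (SE 0.0763, adjusted p = 3.26e-06, edgeR) for E12.5, E14.5 and E16.5 against the stage before. These calls remained in every leave-one-out fit.

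Counted over the members, 5 of 6 were called at E12.5 against E10.5, 1 higher and 4 lower, where 29.4% of the 14527 genes tested were called and 56.1% of these calls were higher. At E14.5 against E12.5 4 were called, all lower, beside 36.2% of all genes, with 52.3% of their calls higher. At E16.5 against E14.5 4 were again called, all lower, beside 39.5% of all genes, with 49.2% of their calls higher. The members called lower were Acta1, Actb and Actg1 at all 3 steps, Acta2 at the first and the last, and Actg2 at the second. At E12.5 and E14.5 cardiomyocyte Actg2 lay below its level in free RNA. The E12.5 libraries served in the first and second of these comparisons and the E14.5 libraries in the second and the third.

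The share of mitochondrial UMIs moved with stage. Its median in cardiomyocytes was 2.32% in the E8.5 library, 3.6 and 3.89% in those of E10.5, 5.28 and 5.51% in those of E12.5, 7.83 and 7.72% in those of E14.5, 10.2 and 10.7% in those of E16.5 and 22% in the P3 matrix. Since these UMIs enter the total, the tests were repeated on nuclear genes alone. All 63 member results of the 11 comparisons stayed on the same side of the threshold. This outcome was nearly fixed in advance, since TMM factors already scale libraries by the bulk of the genes, and it decides nothing about the mitochondrial share. Levels over nuclear UMIs do leave that share out. Their E10.5 to E16.5 ratio was 10.4 for Acta1, 6.78 for Actb, 4.04 for Actg1, 2.3 for Acta2 and 0.69 for Actc1. Cardiomyocytes under 1% mitochondrial UMIs were unlike the rest in their actins. At E12.5 they made up 33.4 and 32.9% of cardiomyocytes, with 774 and 655 CPM of Acta1 against 380 and 373 CPM in the others and with 180 and 197 CPM of Actb against 335 and 379 CPM. At E14.5 Acta1 was 468 and 379 CPM against 236 and 222 CPM. These barcodes hold higher sarcomeric and lower cytoplasmic actin in all 4 libraries, and what they are was not tested.

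The mixture of actins in cardiomyocytes shifted towards Actc1 with stage. Of the 2 sarcomeric α-actins, Acta1 made up 5.92% in the E8.5 library, 9.90 and 11.8% in those of E10.5, 3.23 and 3.15% in those of E12.5, 2.05 and 1.84% in those of E14.5, 0.814 and 0.787% in those of E16.5 and 0.630% in the P3 matrix. The mean share at E10.5 exceeded that at E16.5 by 10.03 percentage points, by 6.64 without barcodes holding a Myog, Myod1 or Myf5 UMI and by 6.51 at doubled gate levels. The 4 muscle actins together took 83.6% of all actin UMIs in the E8.5 library, 84.4 and 87.8% in those of E10.5, 95.2 and 95% in those of E12.5, 97.4 and 97.3% in those of E16.5 and 95.3% in the P3 matrix. The P3 value lies below those of E16.5, and Actb and Actg1 had higher levels at P3 than at E16.5. Within the cytoplasmic pair, Actg1 took 21.6% in the E8.5 library, 37.1 and 42.8% in those of E10.5, 56.6 and 52.4% in those of E12.5, 53.6 and 51.1% in those of E16.5 and 44.6% in the P3 matrix. All 6 actins together summed to 19923 CPM at E8.5, 13647 and 13559 CPM at E10.5, 15246 and 14941 CPM at E12.5, 12412 and 12376 CPM at E16.5 and 10545 CPM at P3.

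**Figure D2:**
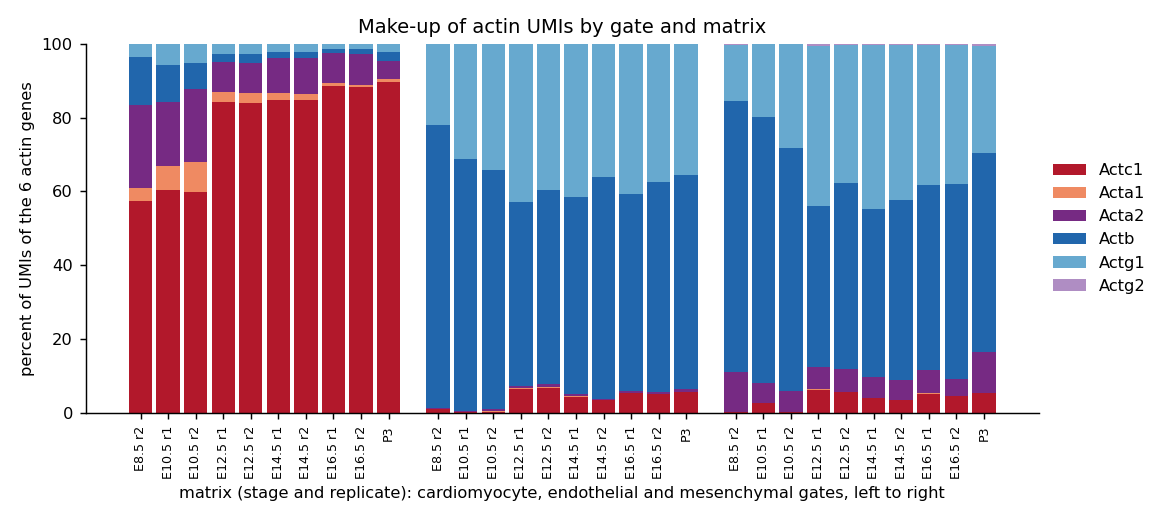
Make-up of the UMIs of the 6 actin genes in percent, with 1 stacked bar per matrix in stage order and the cardiomyocyte, endothelial and mesenchymal gates from left to right. In cardiomyocytes Actc1 fills 57.3% of the bar at E8.5 and 89.8% at P3, while in the other 2 gates Actb and Actg1 fill most of every bar.

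The share of cardiomyocytes with an Acta1 UMI was lower at each stage from E12.5 on than at the one before. With each barcode thinned to 2000 UMIs, it was 49.3% in the E8.5 library, 51.6 and 46.8% in the E10.5 libraries, 39.4 and 38.2% in those of E12.5, 20.3 and 20.8% in those of E14.5, 8.57% in both of E16.5 and 5.98% in the P3 matrix. Unthinned barcodes gave 67.2 and 70.6% in the E10.5 libraries, 23.1 and 20.1% in those of E16.5 and 17.6% in the P3 matrix. In endothelial cells, which should lack the gene, 0 to 3.13% held one after thinning in the heart libraries, with median depths of 9763 to 24597 UMIs against 11774.5 to 20439 in cardiomyocytes. An Actc1 UMI was found in 98.4 to 99.8% of thinned cardiomyocytes in every matrix. Acta2 was found in 98.6% at E8.5, 91 and 88.1% at E10.5, 68.4% in both E12.5 libraries, 62.8 and 65.5% in the E14.5 libraries, 58.7 and 59.5% in those of E16.5, and 42.0% at P3. Single barcodes and sums did not always order the stages alike. The median Actc1 level per barcode was 9425 CPM at E8.5 and 9501 and 9474 CPM at E16.5, whereas the sum was higher at E8.5. The median Acta2 level per barcode was 843 and 821 CPM at E12.5 and 710 and 787 CPM at E14.5, whereas the sums were higher at E14.5. The median Acta1 level was 377 CPM at E8.5 and 305 and 231 CPM at E10.5, whereas the sums were higher at E10.5. Without barcodes holding a Myog, Myod1 or Myf5 UMI the E10.5 sums averaged 677 CPM against 719 CPM at E8.5, the same order as the medians.

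In endothelial and mesenchymal cells Actb and Actg1 stood above the muscle actins. In endothelial cells of the 6 libraries from E12.5 to E16.5, Actb lay between 2458 and 4358 CPM and Actg1 between 1903 and 2611 CPM, far above their cardiomyocyte ranges of 147 to 357 and 170.0 to 411 CPM. Actc1 was counted there at 241 to 352 CPM, Acta2 at 24.7 to 41.7 CPM and Acta1 at 1.28 to 14 CPM. Mesenchymal cells resembled them in Actb, at 2590.3 to 4805 CPM, and in Actg1, at 1961 to 3651 CPM. They held more Acta2, at 275 to 588 CPM, and more Actg2, at 12.7 to 53.0 CPM against at most 1.68 CPM in endothelial cells.

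**Figure D3:**
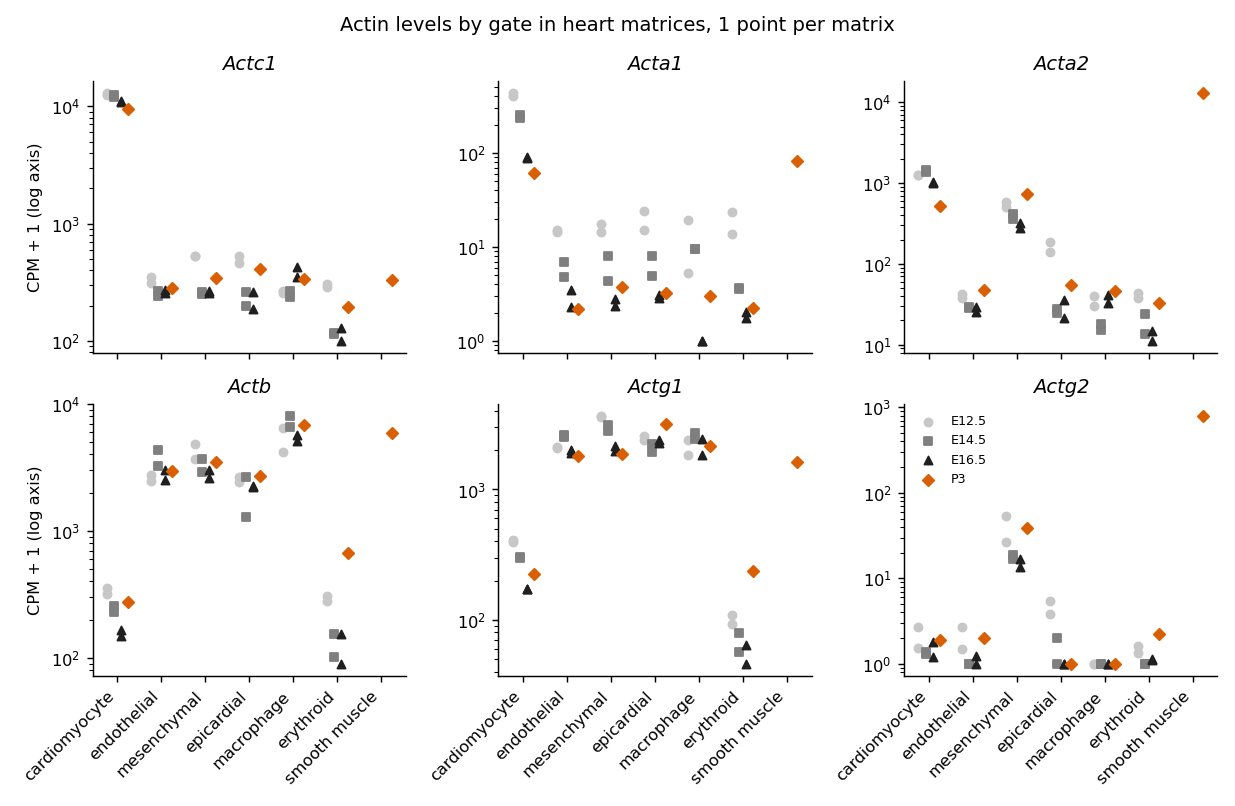
Levels of each actin gene in 7 gates in heart matrices, as CPM + 1 on a log axis, with 1 panel per gene, 1 point per matrix and the stage given by colour and shape; smooth muscle is drawn at P3 alone. Cardiomyocytes lie above the endothelial and mesenchymal gates for Actc1 and Acta1 in every matrix drawn and below them for Actb and Actg1.

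Over these 6 libraries cardiomyocytes exceeded endothelial cells by 5.58 in Actc1 (SE 0.151), 5.41 in Acta1 (SE 0.212) and 5.45 in Acta2 (SE 0.162) on the log2 scale, and were lower by -3.54 in Actb and -2.84 in Actg1. All 5 were called by edgeR, 3 higher and 2 lower, beside 77% of the 13250 genes tested, of whose calls 52.3% were higher, and Actg2 was not (0.55, adjusted p = 0.399, but 2.25 with adjusted p = 0.00809 without E12.5 replicate 2). Against mesenchymal cells all 6 were called, Actc1 at 5.46, Acta1 at 5.54 and Acta2 at 1.88 higher, and Actb at -3.57, Actg1 at -3.08 and Actg2 at -4.84 lower, beside 75.7% of all genes called. No cardiomyocyte library from E12.5 to E16.5 overlapped with an endothelial or mesenchymal one in Actc1, Acta1, Acta2, Actb or Actg1. The share of all genes without such overlap was not counted. With 77 and 75.7% of all genes called, the lack of overlap is not read as particular to the actins.

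Mesenchymal cells exceeded endothelial cells by 3.57 in Acta2 and by 5.39 in Actg2, both called by edgeR. Actg1 differed by 0.23 with adjusted p = 0.0423, and in the fit that keeps the 2 classes of a library together as a replicate block this was 0.23 with adjusted p = 0.0582. It was also 0.11 (adjusted p = 0.431) at doubled gate levels and 0.32 (adjusted p = 0.161) without TMM factors. The Actg1 call was also lost without E12.5 replicate 1 (0.16, adjusted p = 0.149), E12.5 replicate 2 (0.16, adjusted p = 0.170), E14.5 replicate 2 (0.27, adjusted p = 0.0588) or E16.5 replicate 2 (0.24, adjusted p = 0.0537). Thus 3 of 6 members were called, all higher, beside 59.9% of all genes, of whose calls 49.2% were higher. Actc1 (0.12), Acta1 (-0.13) and Actb (0.03) were not called.

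Free RNA moved with the sarcomeric actins outside cardiomyocytes. Its profile was read from barcodes of 10 to 100 UMIs and scaled to the Tnnt2 count of each class, which assumes that all Tnnt2 outside cardiomyocytes is free. In endothelial cells of the 6 libraries the observed level was 0.996 to 1.18 times the scaled one for Actc1, 0.717 to 1.21 times for Acta1 and 0.828 to 1.27 times for Acta2. Mesenchymal Actc1 stood at 0.739 to 1.29 times and Acta1 at 0.543 to 0.939 times. Acta2 in mesenchymal cells stood at 8.69 to 12.6 times and Actg2 at 99.2 to 317 times the scaled free RNA, and Actb and Actg1 in both classes at 53.9 to 173 times. Below, the Actc1, Acta1 and endothelial Acta2 values of these classes are called at background, which means only near the scaled free RNA. The cardiomyocyte differences above were taken against these values, at 5.58, 5.41 and 5.45 for endothelial Actc1, Acta1 and Acta2. The same holds for 5.46 and 5.54 against mesenchymal Actc1 and Acta1. How far the size of these differences follows free RNA was not tested. The Actc1 ratio was 0.464 to 0.897 in epicardial barcodes (Upk3b at 200 CPM or more). There the scaled level exceeded the measured one, so that scaling to Tnnt2 overstated the free Actc1. The Actc1 ratio was 1.03 to 1.27 in the erythroid and 1.22 to 1.63 in the macrophage barcodes described further below. The ratio cannot tell free RNA from doublets or from expression in the cells, and the source was not tested. The P3 matrix holds no barcode of 10 to 100 UMIs, and this check was not possible there.

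**Figure D4:**
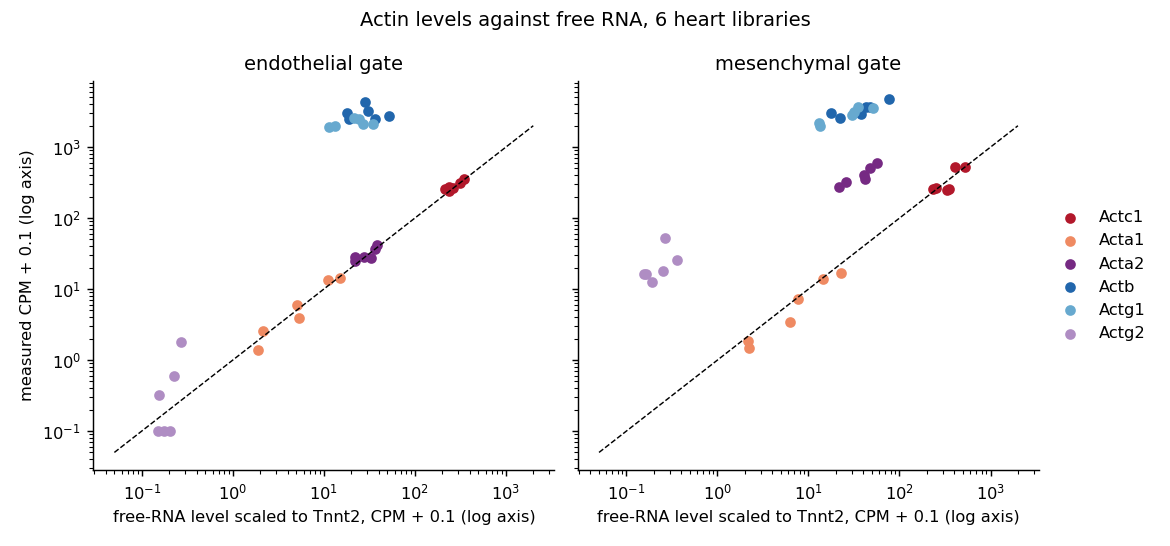
Measured level of each actin gene (vertical axis) against the level that free RNA scaled to Tnnt2 would give (horizontal axis), both in CPM plus a small constant on log axes, in endothelial and mesenchymal cells of the 6 libraries from E12.5 to E16.5, with a dashed line of equality. Actc1 and Acta1 lie near the line in both gates, at 0.543 to 1.29 times the scaled level, Acta2 lies near it in endothelial cells and above it in mesenchymal cells, and Actb lies at 53.9 to 173 times that level.

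Across stages endothelial Actb measured 2458 and 2778 CPM at E12.5, 3227 and 4358 CPM at E14.5 and 2505 and 3042 CPM at E16.5. The ranges of E14.5 and its neighbours did not overlap, but E14.5 replicate 1 lay nearer to the higher E16.5 library than to E14.5 replicate 2. Actb was higher by 0.47 at E14.5 against E12.5 (SE 0.113, adjusted p = 0.00311) and lower by -0.47 at E16.5 against E14.5 (SE 0.114, adjusted p = 0.00598, edgeR). Without E14.5 replicate 2 these were 0.23 (adjusted p = 0.246) and -0.22 (adjusted p = 0.334), and without E16.5 replicate 1 the second was -0.35 (adjusted p = 0.0689). DESeq2 called neither, with adjusted p = 0.146 and 0.205. The P3 matrix, at 2973 CPM, joined wells of 1769 and 4442 CPM.

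Endothelial Actg1 stood at 2103 and 2089 CPM at E12.5, 2506 and 2611 CPM at E14.5 and 1903 and 1993 CPM at E16.5. It was higher by 0.22 at E14.5 (adjusted p = 0.0431) and lower by -0.41 at E16.5 (adjusted p = 0.00114, edgeR). The first call was lost without E12.5 replicate 2 (0.21, adjusted p = 0.0608), E14.5 replicate 1 (0.26, adjusted p = 0.148) or E14.5 replicate 2 (0.18, adjusted p = 0.322) and with DESeq2 size factors (0.21, adjusted p = 0.0551), and at doubled gate levels it was 0.38 (adjusted p = 0.00574). The second was lost without E14.5 replicate 2 (-0.37, adjusted p = 0.0578). Of the 5 members tested in endothelial cells, all were called at E14.5 against E12.5, 2 higher and 3 lower, beside 32.4% of the 11632 genes tested, of whose calls 48.8% were higher. The 3 lower ones, Actc1 (-0.46), Acta1 (-1.53) and Acta2 (-0.58), were at background, and at doubled gate levels Actc1 was -0.05 (adjusted p = 0.932) and Acta2 0.11 (adjusted p = 0.837). At E16.5 against E14.5, 3 of the 5 were called, all lower, beside 17.2% of all genes called, 53.1% of them higher. These were Actb, Actg1 and, at background, Acta1 (-1.48, adjusted p = 0.00501). The Acta1 call was lost without E14.5 replicate 1 (-1.13, adjusted p = 0.105) or E16.5 replicate 1 (-1.05, adjusted p = 0.121).

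In mesenchymal cells Acta2 measured 508 and 588 CPM at E12.5, 360.5 and 409 CPM at E14.5, 322 and 275 CPM at E16.5 and 729 CPM at P3, where the 2 wells gave 503 and 877 CPM, while the few mesenchymal barcodes of E8.5 and E10.5 gave 1649 CPM and 599 and 443 CPM. It was lower by -0.56 at E14.5 against E12.5 (adjusted p = 0.00126) and differed by -0.16 at E16.5 (adjusted p = 0.288, edgeR). Without E14.5 replicate 1 the first was -0.48 with adjusted p = 0.0562, and without TMM factors the second was called (-0.36, adjusted p = 0.0112). Actg2 went from 53.0 and 25.3 CPM at E12.5 to 16 and 17.8 CPM at E14.5 and 12.7 and 16 CPM at E16.5, and stood at 38.2 CPM at P3, with wells of 21.0 and 49.5 CPM. Its difference was -1.20 at E14.5 (adjusted p = 0.00391), but -0.63 without E12.5 replicate 1 (adjusted p = 0.0144) and -1.71 without E12.5 replicate 2 (adjusted p = 1.58e-09). The call was lost without E14.5 replicate 1 (-1.13, adjusted p = 0.0870) and with DESeq2 (-1.26, adjusted p = 0.0686). The E12.5 libraries differed from each other by more than the E14.5 and E16.5 libraries did.

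Mesenchymal Actg1 fell from 3651 and 3575 CPM at E12.5 to 2830 and 3143 CPM at E14.5 and 1961 and 2164 CPM at E16.5, without overlap. Its log2 differences were -0.32 (adjusted p = 0.00710) and -0.34 (adjusted p = 0.00411, edgeR). The first was -0.26 without E14.5 replicate 1 (adjusted p = 0.157), and the second was -0.26 without E14.5 replicate 2 (adjusted p = 0.112). Actb measured 3694 and 4805 CPM at E12.5, 2883 and 3657 CPM at E14.5 and 2590.3 and 3029 CPM at E16.5, and the libraries of E14.5 and E16.5 overlapped. Its differences were -0.43 (adjusted p = 0.0185) and -0.02 (adjusted p = 0.924). The first was -0.23 without E12.5 replicate 2 (adjusted p = 0.123) and -0.27 without E14.5 replicate 1 (adjusted p = 0.294), and DESeq2 gave adjusted p = 0.262. All 6 members were called lower at E14.5 against E12.5, beside 18.7% of the 12066 genes tested, of whose calls 46.9% were higher, with Actc1 (-1.10) and Acta1 (-1.67) at background. Doubled gate levels, which left 61 and 170 mesenchymal barcodes at E12.5, ended 4 of these 6 calls, with Actc1 at -0.14 (adjusted p = 0.620), Acta1 at -0.51 (adjusted p = 0.395), Acta2 at -0.37 (adjusted p = 0.203) and Actg1 at -0.30 (adjusted p = 0.0708). At E16.5 against E14.5 Acta1 (-1.48, adjusted p = 0.0119) and Actg1 were lower and Actc1 was higher (0.24, adjusted p = 0.0355), beside 23.9% of all genes called, 56.6% of them higher. The Actc1 call was lost without E14.5 replicate 1 (0.22, adjusted p = 0.218), E14.5 replicate 2 (0.27, adjusted p = 0.134) or E16.5 replicate 1 (0.18, adjusted p = 0.265), with DESeq2 (0.25, adjusted p = 0.0806) and without TMM factors (0.04, adjusted p = 0.690). At doubled gate levels Actc1 was lower (-0.56, adjusted p = 0.00850) and Actg1 was -0.24 (adjusted p = 0.119), and without TMM factors Actg1 was -0.53 (adjusted p = 5.44e-05). The call of Acta1 was lost without E14.5 replicate 2 (-0.93, adjusted p = 0.177) or E16.5 replicate 1 (-1.30, adjusted p = 0.123).

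The atrial and ventricular cardiomyocytes of the heart differed most in Acta2. Atrial barcodes were gated by Sln (sarcolipin) at 500 CPM or more and ventricular barcodes by Myl2 (ventricular myosin light chain) at 1000 CPM or more, which gave 45 to 339 and 2284 to 3520 barcodes per library from E12.5 to E16.5. Atrial Acta2 stood at 575 and 657 CPM at E12.5, 687 and 582 CPM at E14.5 and 320 and 268 CPM at E16.5. Ventricular Acta2 stood at 1232 and 1251 CPM, 1413 and 1486 CPM, and 1075 and 1107 CPM. Every atrial library lay below every ventricular one, with a difference of -1.47 (SE 0.117, adjusted p = 1.02e-08, edgeR). The gap was -1.14 at E12.5 and widened to -1.31 and -2.0 at the next stages, and its change from E12.5 to E16.5 was -0.86 (SE 0.144, adjusted p = 0.000336), beside 6.17% of the 13645 genes called for such a change.

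**Figure D5:**
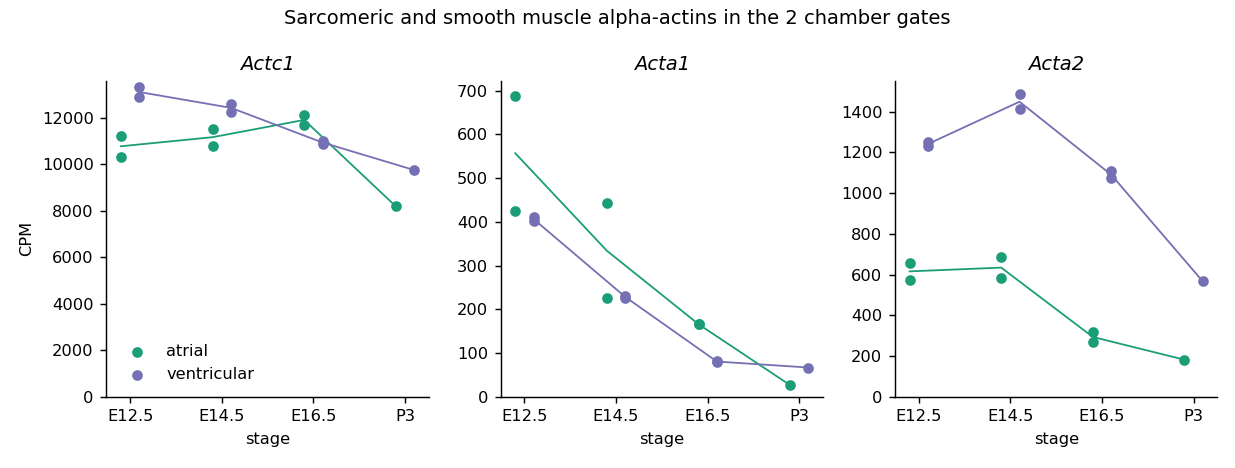
Levels of Actc1, Acta1 and Acta2 in atrial and ventricular cardiomyocytes from E12.5 to P3, in CPM on linear axes that start at 0, with 1 point per matrix and lines through the stage means. Atrial Acta2 lies below ventricular Acta2 at each stage, and Acta1 is 26.5 CPM in atrial and 66.9 CPM in ventricular cardiomyocytes at P3.

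Acta1 had the opposite order in embryonic hearts. Atrial libraries held 689 and 425 CPM at E12.5, 442 and 226 CPM at E14.5 and 166 CPM in both libraries at E16.5, against 411 and 402, 231 and 225, and 82.1 and 79.1 CPM in ventricular ones. The libraries did not overlap at E12.5 and E16.5 and overlapped at E14.5. Acta1 was 0.59 higher in atrial cardiomyocytes over the 6 libraries (SE 0.134, adjusted p = 0.00178, edgeR). By stage it was 0.31 at E12.5 (adjusted p = 0.256), 0.49 at E14.5 (adjusted p = 0.0357) and 0.93 at E16.5 (adjusted p = 8.42e-05), beside 14.7, 23.5 and 31.1% of all genes called in the fit by stage, and its change from E12.5 to E16.5 was 0.62 (SE 0.235, adjusted p = 0.139). The pooled difference was 0.30 (adjusted p = 0.212) where barcodes under 1% mitochondrial UMIs were left out and 0.32 (adjusted p = 0.236) at doubled gate levels. Doubled gate levels, here and for Actc1 below, left only 11 and 21 atrial barcodes at E12.5. Barcodes under 1% mitochondrial UMIs were 20 and 31.1% of the atrial and 35.1 and 34.0% of the ventricular gate at E12.5, 30.2 and 30.7% against 15.8 and 14.02% at E14.5, and 27.4 and 23.0% against 6.70 and 4.95% at E16.5, so that the atrial gate held the larger share at the later 2 stages. Skeletal muscle markers moved with the atrial gate as well. The 6 genes of that list summed to 2403 to 3223 CPM in the atrial and to 68.6 to 395 CPM in the ventricular libraries of E12.5 to E16.5. Nearly all of it was Myl1, a myosin light chain that the atrial gate held at 2386 to 3188 CPM. Tnnt3 (fast skeletal troponin T) stood at 6.74 to 129 CPM there against 1.88 to 5.86 CPM in the ventricular gate, and Myod1 and Myf5 were at 0 in all 6 atrial sums. Their part in the Acta1 difference was not tested. At P3, with no test, atrial Acta1 was 26.5 CPM (95% Poisson interval 24.2 to 29.0) and ventricular Acta1 66.9 CPM (65.2 to 68.5), and the 2 wells gave 25.4 and 28.4 against 66.9 and 66.7 CPM. The mitochondrial ceiling of the study would keep 1136 of 1191 atrial barcodes at P3, but 2712 of all 7176 cardiomyocytes.

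Actc1 was between 10311 and 12135 CPM in atrial and between 10871 and 13317 CPM in ventricular libraries, which overlapped. The difference was -0.21 (SE 0.0774, adjusted p = 0.0387, edgeR), and with the 2 chambers of a library as a replicate block it was -0.21 with adjusted p = 0.0942. The call was lost without E12.5 replicate 1 (-0.15, adjusted p = 0.129), E12.5 replicate 2 (-0.20, adjusted p = 0.0726), E14.5 replicate 1 (-0.21, adjusted p = 0.132) or E14.5 replicate 2 (-0.21, adjusted p = 0.120), at doubled gate levels (-0.16, adjusted p = 0.218), without TMM factors (-0.10, adjusted p = 0.271) and under the mitochondrial ceilings of the study (-0.14, adjusted p = 0.132). With DESeq2 size factors the call was lost as well (-0.20, adjusted p = 0.0501, edgeR). The value was -0.36 (adjusted p = 0.00104) without barcodes under 1% mitochondrial UMIs. By stage it was -0.42 at E12.5, -0.28 at E14.5 and 0.01 at E16.5, a change of 0.42 from first to last (SE 0.117, adjusted p = 0.0280). Actb (-0.00, adjusted p = 0.995) and Actg1 (0.01, adjusted p = 0.904) did not pass the test over the 6 libraries, in which Actg2 was not tested. In the fit by stage Actg2 was not called (edgeR adjusted p = 0.923 at E12.5, 0.585 at E14.5 and 0.301 at E16.5). By stage Actb was lower in atrial cardiomyocytes at E12.5 (-0.31, adjusted p = 0.0378), 0.10 at E14.5 (adjusted p = 0.520) and 0.12 at E16.5 (adjusted p = 0.342), a change of 0.43 from first to last (adjusted p = 0.0575). Of 5 members, 3 were called, 1 higher and 2 lower, beside 39.5% of the 12481 genes tested, of whose calls 48.5% were higher.

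At E10.5 the atrial gate held only 8 and 7 barcodes, of which 7 and 6 had a UMI of a myogenic regulator, so that it is not read as atrial there.

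Among other cells, the highest Acta2 was found in the P3 smooth muscle gate, barcodes with at least 300 CPM of Myh11 (smooth muscle myosin). Its 107 barcodes held 12840 CPM of Acta2, 5910.3 CPM of Actb, 1619 CPM of Actg1, 789 CPM of Actg2, 331 CPM of Actc1 and 81.2 CPM of Acta1. Acta2 and Actg2 were thus both higher there than in any other gate of the P3 matrix. At the earlier stages this gate held at most 7 barcodes per library. Macrophages, gated by C1qb (a complement chain) at 500 CPM or more, held 4196 to 8009 CPM of Actb from E12.5 to E16.5, with 9 to 57 barcodes per library and a median of 6102 CPM. Erythroid barcodes, with at least 10% globin UMIs, held 88.7 to 307 CPM of Actb (median 152) and 45 to 108 CPM of Actg1 (median 70.7), below the cardiomyocyte medians of 241 and 298 CPM. Globin UMIs enter the total of these barcodes, which lowers the CPM of other genes, and no level without globin was read.

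The genes most alike to each member were ranked by Pearson r of log2(CPM + 1) over 40 sums of library and class among 4868 genes. The points share libraries and depth and are a description only. Actc1 was closest to Pgam2 (a muscle phosphoglycerate mutase, r = 0.991), Csrp3 (muscle LIM protein, 0.982) and Apobec2 (0.977), and Acta1 to Myl1 (0.960), Nkx2-5 (0.954) and Cacna2d2 (0.950). Acta2 was closest to Myl9 (a smooth muscle light chain, 0.950), Synpo2 (0.936) and Cryab (0.901). Actb followed Tpm4 (0.952) and Tpm3 (0.934), which encode tropomyosins, and Actg1 (0.926). Actg1 was closest to Eva1b (0.950), Soat1 (0.949) and Dbn1 (drebrin, 0.938), and Actg2 to Cd248 (0.855), Serping1 (0.833) and Lrp1 (0.826). Between members r was 0.871 for Actc1 and Acta1, 0.698 for Actc1 and Acta2, and -0.788 for Actc1 and Actb.

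Other genes of the actin system were read from lists chosen with earlier results of these data known, so that their counts are descriptive. The same cardiomyocyte tests were used, in which 29.4, 36.2 and 39.5% of all genes were called at the 3 steps. Of 13 thin filament and Z-disc genes, 9 rose and none fell at E12.5 against E10.5 (median log2 difference 0.59, over all genes 0.07), 6 rose and 1 fell at E14.5 (0.21, over all genes 0.00), and 12 rose and none fell at E16.5 (0.38, over all genes -0.02). The first step was led by Actn2 (α-actinin, 2.03), Tnni3 (cardiac troponin I, 1.19), Tnni1 (0.63) and Tnnc1 (0.59), and the last by Tnni3 (0.90), Fhod3 (a formin, 0.66), Ldb3 (0.59) and Lmod3 (a leiomodin, 0.51). Genes are named by the smallest adjusted p. The first step, here and in the paragraphs on the other lists below, also compares embryos without head and limbs with hearts. Doubled gate levels left 21 of 122 and 29 of 109 cardiomyocyte barcodes at E10.5. At E12.5 they left 1759 of 2601 and 2136 of 3445. Calls over all genes then numbered 1264 in place of 4274, and the lists were read at the main gate alone. Of 12 non-muscle crosslinkers, 1 rose and 6 fell at the first step (median -0.53), none rose and 7 fell at the second (-0.34) and none rose and 9 fell at the third (-0.51), beside the medians over all genes given above. At the last step these were led by Fscn1 (fascin, -1.12), Tpm4 (-0.83), Tpm3 (-0.60) and Tagln2 (-0.72), in the direction of Actb and Actg1.

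Of the 8 genes of the Arp2/3 complex, which nucleates branched filaments, 1 rose and 1 fell, then 1 rose and 4 fell, then none rose and 6 fell (medians 0.13, -0.20 and -0.34), beside 29.4, 36.2 and 39.5% of all genes called. The 2 of 8 called at the first step are a share near that background. Monomer binding and turnover genes numbered 13, with 4, 1 and 3 higher and 3, 3 and 8 lower at the 3 steps (medians 0.06, -0.06 and -0.30), and the 4 of 13 called at the second step are likewise near it. Gsn (gelsolin, which severs filaments) rose at each step, by 3.66, 0.35 and 0.66, and Tmsb4x (thymosin β4, which binds monomers) rose by 0.45 at the first step and fell by 0.82 at the last. Of 10 smooth muscle genes 3 rose and 4 fell, none rose and 6 fell, and 2 rose and 5 fell (medians -0.18, -0.46 and -0.20). Tagln (transgelin) fell at each step by 0.59, 1.42 and 2.54, and Cnn1 (calponin) by 0.58 and 1.37 at the second step and the third, after a rise of 0.73 at the first.

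Srf and its coactivators were counted by 4 symbols. Srf rose by 0.51 at the first step, and Mkl2 and Myocd (myocardin) fell by 0.81 and 0.45. Myocd and Mkl2 rose by 0.50 and 0.25 at the second, and no gene of this list was called at the third. Of 14 genes for actin folding and modification, such as the chaperonin subunits, 7 rose and 2 fell at the first step, led by Cct8 (0.72), none rose and 3 fell at the second, and none rose and 4 fell at the third (medians 0.25, -0.15 and -0.16). Over all genes tested, 29.4, 36.2 and 39.5% were called at these steps. The 3 of 14 and 4 of 14 called at the second and the third are below these shares.

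In endothelial cells 7 of 12 crosslinkers and 5 of 8 Arp2/3 genes rose at E14.5 against E12.5, with 1 lower in each list (medians 0.32 and 0.31, over all genes 0.00), beside 32.4% of all genes called. At E16.5, 6 of the 8 Arp2/3 genes fell and none rose (median -0.32, over all genes -0.00), beside 17.2% called. Mesenchymal crosslinkers fell in 6 of 12 cases at E14.5 with none higher (median -0.31), and turnover genes in 7 of 13 with 2 higher (median -0.27), beside 18.7% called. Against endothelial cells, cardiomyocytes were higher in all 12 thin filament genes tested (median 5.32) and lower in 10 of 12 crosslinkers (median -2.39) and in 7 of 8 Arp2/3 genes (median -1.0, over all genes 0.05). Of all genes 77% were called in this comparison, 40.3% as higher and 36.7% as lower. Of 9 smooth muscle genes tested between the chambers, 5 were higher in atrial cardiomyocytes and none lower (median 0.82, over all genes -0.02), led by Myl9, Tpm2, Mylk and Cnn1, whereas Acta2 was lower, beside 39.5% of all genes called. Folding genes were lower in 9 of 14 cases and higher in 1 (median -0.33).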

How the data were processed

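The deposited matrices hold raw UMI counts per gene and barcode. Per the labels and the submitters' processing notes they come from 10x 3′ libraries (chemistry v2 in the labels, v3 in the published methods), Cell Ranger 2.1.1 (the file headers name a later version) and build mm10, and the authors used Seurat 3.1.1 for later steps. The embryonic matrices list empty barcodes too, whereas the P3 matrix does not. Replicate numbers are those of the bracketed names in the sample titles, since the replicate number of the titles is constant within a stage. The E8.5 library that is replicate 1 by the bracketed name was not analysed here.

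Counts were read with Python 3.11.15 and summed per library and class. Sums of at least 20 barcodes entered edgeR 4.0.16 (R 4.3.3) with TMM factors, filterByExpr and the quasi-likelihood test, 1 fit per class over its replicated stages, and p-values were adjusted by Benjamini-Hochberg over all genes tested (threshold 0.05). DESeq2 1.42.0, its size factors, no TMM, no filter, other barcode filters, doubled gates and leaving out each library were alternatives. The class and chamber fits held E12.5 to E16.5 with stage as a covariate. Replicate numbers did not pair stages: the correlation of same-numbered deviations was -0.0235 to 0.0886. Classes of 1 library come from 1 suspension, and a replicate block was the alternative there. It was also run on the stage fits, where it joins unpaired libraries. In the cardiomyocyte fit of E14.5 against E12.5 on simulated counts of 14705 genes, 92% of 2-fold and 100% of 4-fold changes were recovered, with 5 false calls. The changed genes were drawn from well-counted genes, and the same fixed spread was set for all genes. These rates therefore do not hold for rare genes such as Actg2 or for the measured spread between libraries.

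Barcodes needed 2000 UMIs. The members were named by symbol. Other genes were named as the 3 with the highest r for each member and as up to 4 per list by smallest adjusted p. Gsn, Tmsb4x, Tagln, Cnn1 and the SRF genes were followed over all steps after their values were seen. The members and lists were chosen with earlier results of these data known. Chosen after seeing the data were the nuclear scale, leaving out barcodes with myogenic UMIs, the stage-by-class interaction, the chamber difference by stage and leaving Myh11-gated barcodes out of those in no class. Intervals cover counting error only.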

Additional observations from a re-analysis of the deposited data

Results flagged for a closer look

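Stage changes of some actins differed between classes by a test of the difference itself, fitted with edgeR over both classes. At E14.5 against E12.5, Actb changed by -0.51 on the log2 scale in cardiomyocytes and by 0.48 in endothelial cells, a difference of -0.99 (SE 0.162, adjusted p = 0.000269). Actg1 changed by -0.47 and 0.23, a difference of -0.70 (SE 0.0970, adjusted p = 5.34e-05). The endothelial changes of both genes lost their calls without E14.5 replicate 2. The cardiomyocyte minus endothelial differences of the muscle actins were 0.36 for Actc1 (adjusted p = 0.0248), 0.70 for Acta1 (adjusted p = 0.0314) and 0.71 for Acta2 (adjusted p = 0.000441). The endothelial levels of these muscle actins lay near the scaled free RNA, and their source was not tested. Of all genes 15.1% were called in this test.

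Against mesenchymal cells the same test gave 1.00 for Actc1 (adjusted p = 6.77e-07), 0.86 for Acta1 (adjusted p = 0.0439) and 0.69 for Acta2 (SE 0.131, adjusted p = 0.00136), beside 8.51% of all genes called. Actb (-0.10, adjusted p = 0.808), Actg1 (-0.16, adjusted p = 0.430) and Actg2 (-0.49, adjusted p = 0.775) were not called. For Acta2, cardiomyocytes changed by 0.14 and mesenchymal cells by -0.55. Mesenchymal Acta2 stood at 8.69 to 12.6 times the scaled free RNA, Actc1 at 0.739 to 1.29 times and Acta1 at 0.543 to 0.939 times. In the step from E14.5 to E16.5 the smallest adjusted p over the 6 members and both class pairs was 0.0944, for Actb in cardiomyocytes minus mesenchymal cells (-0.40).

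The chamber difference changed from E12.5 to E16.5 by -0.86 for Acta2 (SE 0.144, adjusted p = 0.000336) and by 0.42 for Actc1 (SE 0.117, adjusted p = 0.0280). The atrial gate held 339 and 313 barcodes there against 45 and 61 at E12.5. These tests were added after seeing the data and were not repeated under the other settings, and the causes were not tested.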

How the results depend on the processing

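Of 1103 values of single members under the alternatives, 990 kept their sign and their side of the threshold, 33 took the other sign with no call in either fit, 63 fell short of the threshold, 14 newly passed it and 3 turned sign with a call. Actc1 in cardiomyocytes at E16.5 against E14.5 was -0.16 without TMM factors, and with doubled gate levels endothelial Acta2 at E14.5 was 0.11 and mesenchymal Actc1 at E16.5 was -0.56. Doubling the gates also moves barcodes with 1500 to 3000 CPM of Tnnt2 into the other classes.

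Genes called numbered 1264 in place of 4274 for cardiomyocytes at E12.5 with doubled gates, where 21 and 29 barcodes remained at E10.5. Endothelial counts of 3768 and 1996 became 1964 and 915 with DESeq2 and 1751 and 995 with doubled gates, and mesenchymal counts of 2255 and 2878 became 1023 and 1291, and 929 and 1803. Leaving out 1 library gave 2569 to 4189, 2965 to 5395 and 3506 to 6259 calls for the cardiomyocyte steps (main 4274, 5263 and 5741), 2351 to 3853 and 1004 to 2306 for endothelial, and 922 to 2134 and 1340 to 3406 for mesenchymal cells. Counts moved by over 1.5 times without E10.5 replicate 1 (2569) or 2 (2748) at the first cardiomyocyte step, and without E14.5 replicate 1 (2965) or 2 (3104) at the second and E14.5 replicate 1 (3506) at the third. In endothelial cells they did so without E14.5 replicate 2 (2351), then without E14.5 replicate 1 (1093) or 2 (1160) or E16.5 replicate 1 (1004). In mesenchymal cells they did so without E14.5 replicate 1 (922) or 2 (1060), then without E14.5 replicate 1 (1340) or 2 (1516) or E16.5 replicate 1 (1547).

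The E10.5 to E16.5 ratio of Acta1 was 13.7 under the mitochondrial ceilings of the study, 7.76 without myogenic barcodes and 13.3 as a mean over barcodes. The Acta1 share of the sarcomeric actins differed between these stages by 6.51 percentage points with doubled gates and 6.64 without myogenic barcodes, and the share of barcodes with Acta1 by 47.3 points without thinning. Without TMM factors the median over all genes moved from 0.07 to -0.07 in the first cardiomyocyte step, from -0.02 to -0.19 in the third, from 0.00 to -0.20 in the second mesenchymal step, from 0.05 to -0.10 and 0.02 to -0.26 for cardiomyocytes against endothelial and mesenchymal cells, from -0.02 to 0.11 for mesenchymal against endothelial cells and from -0.02 to 0.09 between chambers. Calls that were higher moved with it from 56.1 to 38.9%, 49.2 to 22.1%, 56.6 to 24.5%, 52.3 to 44.6%, 51.3 to 36.1%, 49.2 to 62.2% and 48.5 to 63.9%, and in endothelial cells at E14.5 from 48.8 to 60.1%. In a replicate block Actg2 in cardiomyocytes at E12.5 was called (-2.02, adjusted p = 0.00961, edgeR), and beside the Actg1 and Actc1 results given with the classes and chambers the block changed no other call of a member. Across stages the block joins same-numbered libraries that are not paired, so that this Actg2 call is not read as support. The remaining causes were not tested.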

Other observations

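In the endothelial gate the balance of the cytoplasmic actins differed between the early embryos and the hearts. Actb stood at 7864 CPM in the E8.5 library and at 4631 and 3931 CPM in those of E10.5, above the E12.5 libraries at 2458 and 2778 CPM, while E14.5 replicate 2 reached 4358 CPM. Actg1 stayed in a narrow range over the first 5 libraries, from 2080.2 to 2261 CPM. Its share of the cytoplasmic pair was 22.3% in the E8.5 library, 31.4 and 34.6% in those of E10.5 and 46.1 and 42.9% in those of E12.5, and mesenchymal cells went from 17.0% to 21.3 and 29.9% and then 49.7 and 42.7%. These steps were not tested, and stage and tissue cannot be told apart here. In E10.5 barcodes of 10 to 100 UMIs Actb reached 12251 and 11630 CPM, more than in any gate of these libraries.

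Barcodes that passed none of the Tnnt2, Cdh5 and Col1a1 gates stood at 1480 CPM of Acta2 and 80.1 CPM of Actg2 at P3, against 95.2 to 274 and 2.92 to 20.9 CPM in the heart libraries of E12.5 to E16.5. Of these 1146 barcodes 83 were in the smooth muscle gate, and without them the P3 levels were 497 and 17.1 CPM, against 77.6 to 274 and 0.976 to 20.9 CPM without that gate in the earlier libraries. Mesenchymal Actc1 was 274 CPM in E10.5 replicate 1 and 22.5 CPM in replicate 2, from 82 and 72 barcodes.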
